A study of Mus musculus with 39 samples.

Results

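The collagen genes of the mouse were followed in tumors grown from PB2 breast tumor cells that carried p95HER2 or FL-HER2. Members were the genes of the deposited table whose symbol is Col, a number, the letter a and a number, without Col17a1, a hemidesmosome protein of epithelia. The rule found 43 of 20520 genes, and no measured value entered it. They were grouped by structure into 11 fibrillar collagens, 9 of the basement membrane zone, 9 fibril-associated collagens (FACIT), 6 microfibrillar chains of type VI and 8 others. Poly(A) RNA from whole tumors was sequenced as 39 libraries in 4 groups. The groups were 10 PB2-p95HER2 tumors at day 22 after implantation, 9 PB2-FL-HER2 tumors at day 22, 10 PB2-p95HER2 tumors at day 10 and 10 PB2-FL-HER2 tumors at day 10. FL-HER2 is the full-length receptor tyrosine kinase HER2, and p95HER2 is a shortened form that lacks most of the part outside the cell. All 4 groups carried an introduced HER2 form, so no group shows PB2 cells without one. The labels give neither the host strain, the age of the mice, the promoter nor the number of clones behind each line. They do not say that each tumor came from its own mouse, so the p-values hold for the spread among these tumors, part of which may be technical.

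Collagens are matrix proteins in which several chains wind into a stiff helix with glycine at regular places. Fibrillar types I, II, III, V and XI build the cables of connective tissue, and in tumors fibroblasts are known as their main source. Type IV chains form the sheet-like network of basement membranes, to which type VII adds anchoring fibrils and types XV and XVIII add chains that carry glycosaminoglycans. FACIT collagens coat fibrils, and type VI forms beaded filaments around cells. Helix formation needs hydroxylation of proline and lysine in the endoplasmic reticulum, and secreted procollagen is trimmed by proteases and then cross-linked by lysyl oxidases.

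The libraries held 21772259 to 44427621 reads assigned to genes. Levels are given in CPM, the reads of a gene scaled to the usual fixed library size, and where genes are compared with each other in RPKM, which is CPM per kilobase of exon. The length counts every annotated exon base of a gene once, such as 6563 for Col1a1 and 12426 for Col1a2. It can exceed the length of a single transcript, and ranks and shares per length depend on it. Markers of the labelled breast cancer were present, with 1927 to 2962 CPM per library summed over 9 epithelial keratin, claudin and adhesion genes. Skeletal muscle and skin markers varied by orders of magnitude between libraries, at 13.02 to 38080 CPM for 20 muscle genes and 4.63 to 604 CPM for 11 skin genes. In the labels of the FL-HER2 day 10 group, 8 tumors have a number of 5 digits and replicates 7 and 9 have 3 digits, like all other tumors. What the longer numbers stand for is not given in the sources used here. Whole-tumor RNA has 1 further limit: fewer cells of a type and less RNA per cell cannot be told apart.

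The stretches just upstream of the start of 4 collagen genes are shown because these genes carry the construct results below: Col3a1 was lower in p95HER2 tumors at day 10, and Col7a1, Col18a1 and Col25a1 were higher in p95HER2 tumors on both days. Each is the 250 bases before the start in RefSeq (GRCm38.p6, the assembly of the mm10 build), 5′ to 3′ on the strand of the gene. Capitals mark every match, on either strand, to 1 of 4 short motifs, which did not overlap here. They are the CCAAT box, spelled by its name, the GC box of Sp1-type factors with the letters GGGCGG, the TATA box with the letters TATAAA, and the AP-1 site with the letters TGANTCA.
Col3a1, chr1:45311288-45311537, plus strand: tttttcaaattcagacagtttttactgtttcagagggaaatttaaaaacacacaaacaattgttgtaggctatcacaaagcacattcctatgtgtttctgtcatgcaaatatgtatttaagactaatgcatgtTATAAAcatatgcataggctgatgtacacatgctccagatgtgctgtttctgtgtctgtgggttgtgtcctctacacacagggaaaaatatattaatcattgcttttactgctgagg
Col7a1, chr9:108953336-108953585, plus strand: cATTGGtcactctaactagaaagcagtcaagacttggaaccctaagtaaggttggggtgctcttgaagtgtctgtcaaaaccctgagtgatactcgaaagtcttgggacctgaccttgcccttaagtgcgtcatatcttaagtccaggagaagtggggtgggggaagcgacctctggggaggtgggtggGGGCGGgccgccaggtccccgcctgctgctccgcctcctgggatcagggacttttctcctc
Col18a1, chr10:77166531-77166780, minus strand: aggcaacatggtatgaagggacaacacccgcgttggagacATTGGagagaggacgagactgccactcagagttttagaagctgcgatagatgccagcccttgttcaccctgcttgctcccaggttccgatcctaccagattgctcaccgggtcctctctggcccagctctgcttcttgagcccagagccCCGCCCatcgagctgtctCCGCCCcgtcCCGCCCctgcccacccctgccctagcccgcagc
Col25a1, chr3:130180595-130180844, plus strand: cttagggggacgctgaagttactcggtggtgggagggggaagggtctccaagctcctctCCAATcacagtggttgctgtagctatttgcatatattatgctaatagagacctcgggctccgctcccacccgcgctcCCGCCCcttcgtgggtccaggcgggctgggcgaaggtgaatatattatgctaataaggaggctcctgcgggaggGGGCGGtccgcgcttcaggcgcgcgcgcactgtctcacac
The Col3a1 window held 1 TATA box, 117 bases upstream, and no match to the other motifs. The Col7a1 window held a CCAAT box 249 bases upstream and a GC box 61 bases upstream. The printed Col18a1 window held a CCAAT box 210 bases upstream and GC boxes 61, 43 and 33 bases upstream, and the Col25a1 window held a CCAAT box 191 bases upstream and GC boxes 114 and 40 bases upstream. Windows were given for 34 of the 43 members, 37 windows in all. The CCAAT box was in 12 of them, against 33.8% of all 32851 windows, the GC box in 22, against 32.7%, the TATA box in 4, against 12.4%, and the AP-1 site in 1, against 6.75%. These matches are a description of the letters only. RefSeq gives a second Col18a1 start, whose window (chr10:77113706-77113955) holds none of the 4 motifs and lies mostly in annotated exon (241 of 250 bases), so it is not printed. The RefSeq start of Col25a1 lies inside the longer gene span of GENCODE given below, downstream of that span's own start.

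Of the 43 members, 35 passed the filter of at least 1 CPM in at least 9 libraries and were tested. The 8 that did not pass were the type IV chains Col4a3, Col4a4 and Col4a6, the FACIT collagens Col19a1 and Col22a1, the type VI chain Col6a4, and Col26a1 and Col28a1. Of these, Col28a1 reached 1 CPM in 8 libraries, Col4a4 and Col22a1 in 2 libraries each, and the other 5 in none. Averaged over the means of the 4 groups, Col1a1, a chain of type I collagen, had the highest level per length at 538 RPKM. It was followed by Col3a1 at 199, Col1a2 at 152, Col2a1 at 127 and Col6a1 at 103 RPKM. Col9a1 had 62.7 RPKM, and the next in order, Col4a1, Col5a1 and Col6a2, lay between 41.2 and 40.0 RPKM, less apart than their spread. Libraries of 1 group differed least for Col9a1, with a pooled SD of 0.16 on the log2 scale, and most for Col6a5 (1.81) and Col10a1 (1.08). The order differed between days, and Col2a1 and Col9a1 are chains best known from cartilage. By mean level per length within a group, Col2a1 ranked 2 in both day 22 groups and 5 in both day 10 groups. Col9a1 ranked 3 in p95HER2 and 4 in FL-HER2 tumors at day 22, and 6 in p95HER2 and 9 in FL-HER2 tumors at day 10.

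**Figure D1:**
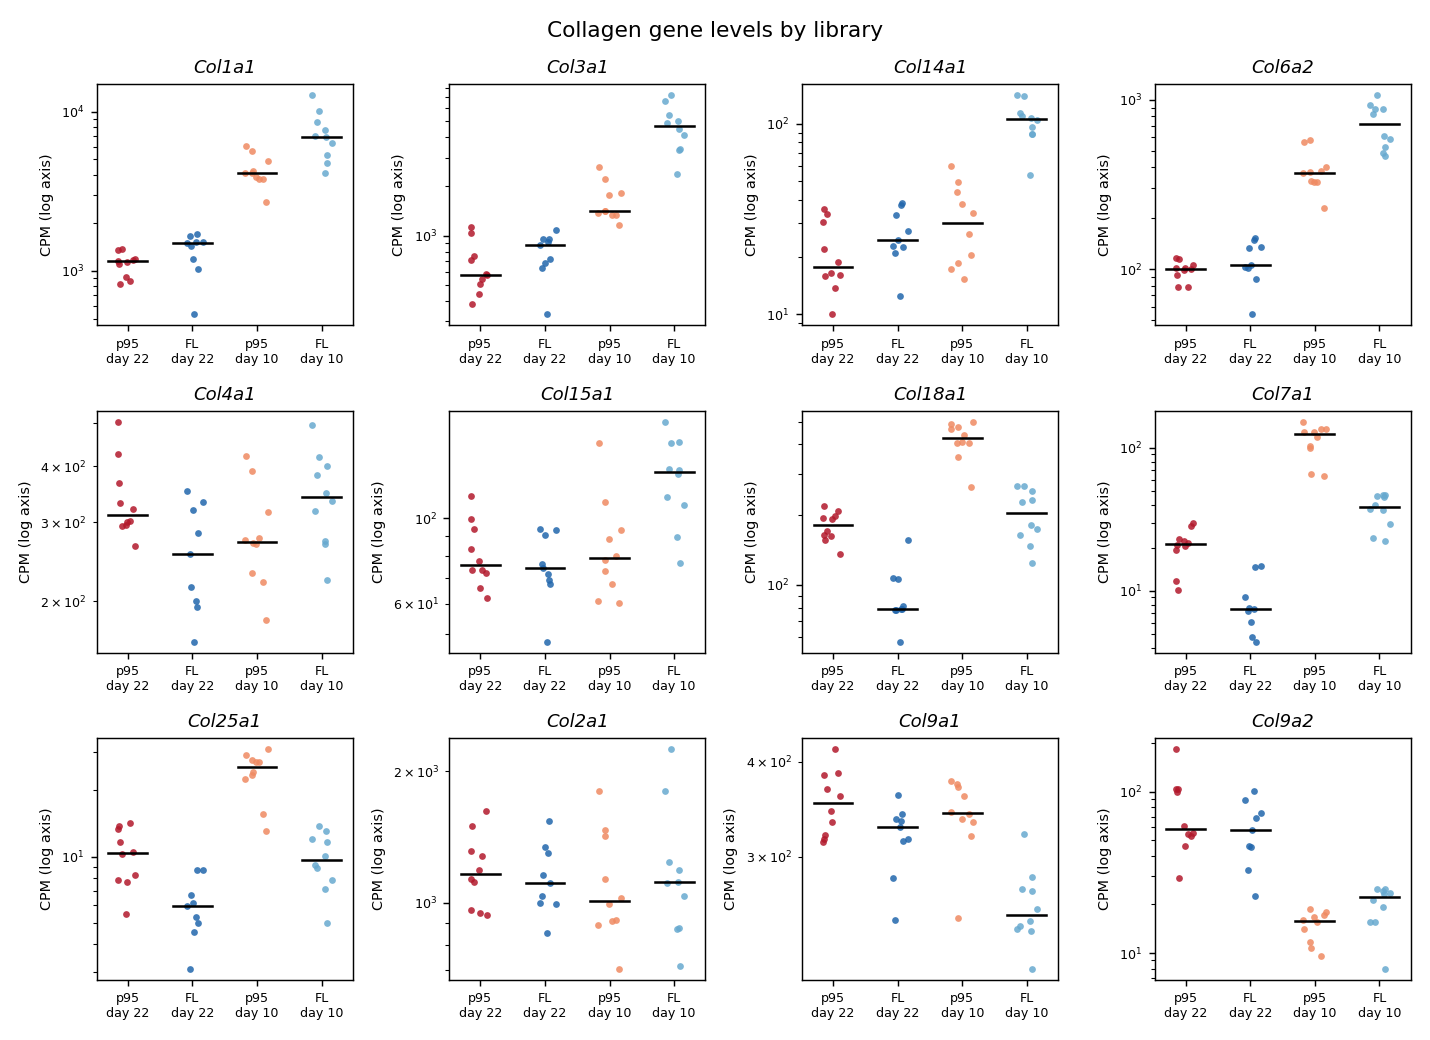
Level of 12 collagen genes in each library, in CPM on a log axis, by group, with p95HER2 left of FL-HER2 on each day. Points are libraries and lines are group medians. Col7a1 at day 10 is the only gene of the 12 whose p95HER2 and FL-HER2 libraries lay fully apart on a day, and Col2a1 stayed near the same level in all 4 groups.

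Col18a1, Col7a1 and Col4a5 of the basement membrane zone and the transmembrane collagen Col25a1 had higher levels with p95HER2 on both days. At day 10 the genes of types I, III and V and most of type VI were lower in p95HER2 tumors, and at day 22 no collagen was called lower. At day 22, 4 of the 35 tested members were called higher and 0 lower by limma at an adjusted p under 0.05, where 2.98% and 1.54% of all 13650 tested genes (4.52% in either direction) were called. At an unadjusted p under 0.05 the counts were 11 higher and 0 lower, and voom weights on the recovered reads also called 4 and 0. At day 10, 7 were higher and 15 lower, where 15.2% and 26.1% of all tested genes (41.3% in either direction) were called. The median log2 change of the 35 was 0.08 at day 22 and -0.34 at day 10, beside -0.01 and -0.04 over all tested genes. Scaling matters for the background at day 10: 36.7% of all calls were higher as deposited and 62.9% after quantile normalization, which moved the median of all genes to 0.06. The collagen counts were then 9 higher and 15 lower.

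Col18a1 encodes the basement membrane chain whose end fragment is endostatin (chromosome 10, 77052178 to 77166548). At day 22 it had 136, 181 and 218 CPM as lowest, median and highest value in p95HER2 tumors, against 57.2, 79.0 and 156 CPM in FL-HER2 tumors. At day 10 it had 262, 425 and 499.8 CPM in p95HER2 tumors, against 125, 204 and 265 CPM in FL-HER2 tumors. The ranges overlapped on both days, at day 10 only because the lowest p95HER2 library, replicate 6, lay just under the highest FL-HER2 library. The log2 difference was 1.01 ± 0.14 (SE) at day 22 (limma, adjusted p 6.2e-06) and 1.02 ± 0.14 at day 10 (adjusted p 4.41e-07).

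Col7a1 encodes the collagen of the anchoring fibrils that fasten epithelium to the tissue below (chromosome 9, 108953586 to 108984875). At day 22 its lowest, median and highest values were 10.1, 21.2 and 29.99 CPM in p95HER2 tumors, against 4.42, 7.52 and 14.9 CPM in FL-HER2 tumors. At day 10 they were 63.3, 125 and 152 CPM in p95HER2 tumors, against 22.4, 38.7 and 46.8 CPM in FL-HER2 tumors. At day 10 every p95HER2 library was above every FL-HER2 library, which held for 1 of the 35 collagens and for 1.43% of all tested genes. No collagen lay fully below at day 10 or fully above or below at day 22, where 1.42%, 0.278% and 0.0147% of all tested genes did. The log2 difference was 1.34 ± 0.21 at day 22 (adjusted p 6.39e-05) and 1.53 ± 0.21 at day 10 (adjusted p 3.51e-07). Both genes are also made in skin, and without the 11 libraries with the highest skin markers the differences at day 10 were 0.89 for Col18a1 (adjusted p 8.54e-04) and 1.29 for Col7a1 (adjusted p 0.00146).

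Col25a1 encodes a transmembrane collagen known from neurons (chromosome 3, 130131501 to 130599877). At day 22 it had 5.47, 10.4 and 14.3 CPM in p95HER2 tumors, against 3.09, 5.96 and 8.72 CPM in FL-HER2 tumors. Its day 10 values were 13.03, 25.6 and 30.9 CPM in p95HER2 tumors, against 4.98, 9.64 and 13.8 CPM in FL-HER2 tumors. The ranges overlapped on both days, and at day 10 only between the lowest p95HER2 and the highest FL-HER2 values. The log2 difference was 0.77 ± 0.19 at day 22 (adjusted p 0.0133) and 1.24 ± 0.19 at day 10 (adjusted p 2.02e-06). The day 22 call was lost without the skin-high libraries, at 0.68 with an adjusted p of 0.131.

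Col4a5, a type IV chain encoded on the X chromosome (141475385 to 141689234), had 112 to 177 CPM at day 22 in p95HER2 tumors, against 76.7 to 142 CPM in FL-HER2 tumors. It differed by 0.45 ± 0.12 at day 22 (adjusted p 0.0174) and by 0.35 ± 0.11 at day 10 (adjusted p 0.011), with overlapping ranges on both days. Leaving out FL-HER2 day 22 replicate 1 ended the day 22 call, with an adjusted p of 0.0541. Without the skin-high libraries both calls were lost, at 0.39 for day 22 (adjusted p 0.0997) and 0.34 for day 10 (adjusted p 0.054), and in libraries with similar muscle content the differences were 0.43 at day 22 (adjusted p 0.0933) and 0.08 at day 10 (adjusted p 0.84). The common type IV chains had no call between constructs by limma on the deposited values of all 39 libraries without a covariate. Col4a1 had a median of 312 CPM at day 22 in p95HER2 tumors, against 255 CPM in FL-HER2 tumors, a difference of 0.42 ± 0.15 (adjusted p 0.106). At day 10 its medians were 272 CPM in p95HER2 tumors and 342 CPM in FL-HER2 tumors, a difference of -0.34 ± 0.15 (adjusted p 0.0584). Col4a2 gave 0.40 ± 0.15 at day 22 (adjusted p 0.111) and -0.34 ± 0.14 at day 10 (adjusted p 0.052), also without a call. With the mean log2 value of the muscle markers as a covariate, limma called Col4a1 (-0.515, adjusted p 0.0231) and Col4a2 (-0.49, adjusted p 0.0257) lower at day 10. With that of the fibroblast markers it called them higher at day 22 (0.53 and 0.50, adjusted p 0.0197 and 0.0212). Col15a1, the relative of Col18a1, was lower in p95HER2 tumors at day 10 (-0.63 ± 0.15, adjusted p 0.001) and differed by 0.10 ± 0.16 at day 22 without a call. Without a covariate, 3 of the 6 tested members of the basement membrane zone were thus higher at day 22, and 3 were higher and 1 lower at day 10. Of all tested genes 2.98% were higher at day 22, and 15.2% were higher and 26.1% lower at day 10.

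Among the 11 fibrillar collagens, 6 were lower and 1 higher in p95HER2 tumors at day 10, where 26.1% and 15.2% of all tested genes were. None was called at day 22 by limma on all 39 libraries without a covariate. There 1 had an unadjusted p under 0.05, and voom also called 0. Col3a1, the chain of type III collagen of loose and reticular tissue (chromosome 1, 45311538 to 45349706), had the lowest adjusted p of the class. At day 22 it had 385, 579 and 1138 CPM in p95HER2 tumors, against 331, 882 and 1089 CPM in FL-HER2 tumors. At day 10 it had 1168, 1414 and 2621 CPM in p95HER2 tumors, against 2378, 4691 and 7265 CPM in FL-HER2 tumors. The day 22 ranges covered each other, and the day 10 ranges met only at their ends. The log2 difference was -0.27 ± 0.21 at day 22 (adjusted p 0.539) and -1.54 ± 0.20 at day 10 (adjusted p 2.29e-07).

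Col1a1 and Col1a2 are the chains of type I collagen, the main protein of scar and tendon. At day 22 Col1a1 had 825, 1146 and 1367 CPM in p95HER2 tumors, against 531, 1488 and 1700 CPM in FL-HER2 tumors. Its day 10 values were 2698, 4101 and 6034 CPM in p95HER2 tumors, against 4117, 6954 and 12780 CPM in FL-HER2 tumors. The groups overlapped on both days. The differences of Col1a1 were -0.23 ± 0.19 at day 22 (adjusted p 0.561) and -0.79 ± 0.18 at day 10 (adjusted p 0.000709). Those of Col1a2 were -0.22 ± 0.20 at day 22 (adjusted p 0.619) and -1.22 ± 0.19 at day 10 (adjusted p 5.23e-06). The type V chains, which set the width of type I fibrils, were lower in p95HER2 tumors at day 10, with log2 differences of -0.98 for Col5a1, -0.87 for Col5a2 and -0.997 for Col5a3. At day 22 Col5a1 differed by -0.06, Col5a2 by 0.00 and Col5a3 by -0.02, without a call.

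The remaining fibrillar genes were not called lower in p95HER2 tumors by limma on the deposited values of all 39 libraries without a covariate. Col24a1 lay at the threshold at day 10 (-0.58 ± 0.24, adjusted p 0.0516), and voom called it lower (-0.53, adjusted p 0.0193). Col2a1, the chain of cartilage fibrils (chromosome 15, 97975602 to 98004695), had 938, 1160 and 1625 CPM at day 22 in p95HER2 tumors, against 849.7, 1107 and 1535 CPM in FL-HER2 tumors. At day 10 it had 705, 1008 and 1798 CPM in p95HER2 tumors, against 717, 1113 and 2250 CPM in FL-HER2 tumors. The groups covered the same range on both days, and the differences were 0.06 ± 0.17 at day 22 (adjusted p 0.905) and -0.15 ± 0.17 at day 10 (adjusted p 0.499). Col11a2, which joins type II fibrils, was the fibrillar gene called higher at day 10 (0.75 ± 0.24, adjusted p 0.0119), with medians of 7.89 CPM in p95HER2 tumors and 4.59 CPM in FL-HER2 tumors. Col27a1 had no limma call between constructs on either day, and Col24a1 had none at day 22. Col11a1 had no call on either day in the fit of all 39 libraries without a covariate, at 0.32 for day 22 (adjusted p 0.0886). With only the 2 groups in the fit limma called it higher at day 22 (adjusted p 0.0266). It did so too with the mean of the fibroblast markers as a covariate (0.37, adjusted p 0.0351) and in libraries with similar muscle content (0.38, adjusted p 0.0399).

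Of the 5 tested microfibrillar chains of type VI, 4 were lower in p95HER2 tumors at day 10, beside 26.1% of all tested genes. At day 22 limma called none, where none had an unadjusted p under 0.05 and voom called 0. Col6a2 had 78.6, 101 and 116 CPM at day 22 in p95HER2 tumors, against 54.0, 106 and 154 CPM in FL-HER2 tumors. Its day 10 values were 229.7, 372 and 578 CPM in p95HER2 tumors, against 468, 723 and 1075 CPM in FL-HER2 tumors. The groups overlapped on both days. Its differences were -0.16 ± 0.18 at day 22 (adjusted p 0.694) and -0.95 ± 0.17 at day 10 (adjusted p 2.91e-05). Col6a1 and Col6a3 were lower at day 10 by -0.70 ± 0.16 and -0.70 ± 0.19. Col6a6, a rare chain that can replace Col6a3, had medians of 0.36 CPM in p95HER2 tumors and 1.49 CPM in FL-HER2 tumors at day 10, a difference of -1.86 ± 0.31 (adjusted p 1.29e-05). It reached 1 CPM in 15 libraries, and its highest p95HER2 day 10 value was 0.97 CPM. Col6a6 thus passed the filter only through the other groups, so its passing and this difference are not independent.

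Among 7 tested FACIT collagens, 1 was higher and 2 were lower in p95HER2 tumors at day 10. These counts lie near the shares of all tested genes, 15.2% higher and 26.1% lower. At day 22 limma on all 39 libraries without a covariate called none. There 2 had a positive change with an unadjusted p under 0.05, and voom called 0. Col14a1 binds the surface of type I fibrils (chromosome 15, 55307750 to 55520803). At day 22 it had 9.96, 17.6 and 35.8 CPM in p95HER2 tumors, against 12.4, 24.4 and 38.6 CPM in FL-HER2 tumors. At day 10 it had 15.2, 30.2 and 60.4 CPM in p95HER2 tumors, against 54.1, 106 and 143 CPM in FL-HER2 tumors, and the ranges met only at their ends. The differences were -0.37 ± 0.25 at day 22 (adjusted p 0.47) and -1.86 ± 0.24 at day 10 (adjusted p 1.79e-07). Col16a1, another fibril-associated chain, was lower at day 10 (-0.88 ± 0.12, adjusted p 3.84e-07), with medians of 121 CPM in p95HER2 tumors and 217 CPM in FL-HER2 tumors. At day 22 it differed by 0.30 ± 0.12 without a call (adjusted p 0.177). Limma called it higher at day 22 with only the 2 groups in the fit (adjusted p 0.0327) and with the mean of the fibroblast markers as a covariate (0.43, adjusted p 0.0057). Col9a1, a chain of the type IX collagen that coats type II fibrils, was higher at day 10 (0.34 ± 0.07, adjusted p 0.000145). Its medians were 342 CPM in p95HER2 tumors and 251 CPM in FL-HER2 tumors. Col12a1, known from dense connective tissue, had no call between constructs. In the remaining class, the short-chain network genes Col8a1 and Col8a2 were lower at day 10 (-0.91 ± 0.22 and -0.72 ± 0.21). Col10a1, the chain of growth plate cartilage, had medians of 22.8 CPM in p95HER2 tumors and 10.6 CPM in FL-HER2 tumors at day 10. It was higher by 1.12 ± 0.46 (adjusted p 0.0483), and leaving out any 1 of 23 libraries ended that call.

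**Figure D2:**
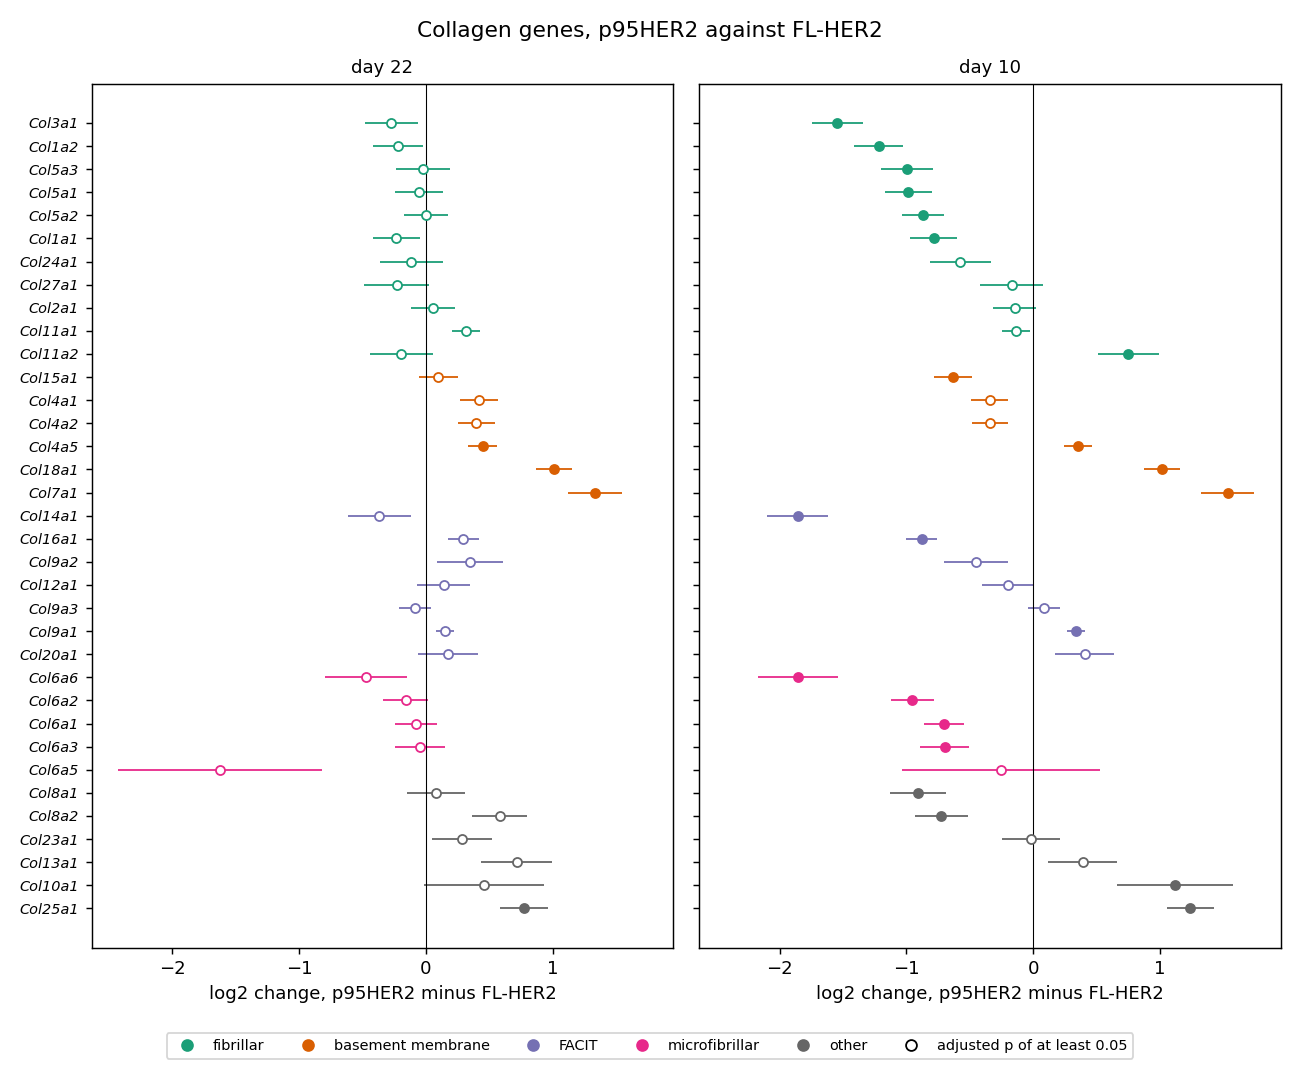
Log2 change of p95HER2 over FL-HER2 for each tested collagen at day 22 (left) and day 10 (right), with bars for 1 SE and filled points for genes called at an adjusted p under 0.05. At day 22, 4 genes are filled, all to the right of 0. At day 10, 7 filled genes lie right and 15 left, among them Col18a1 at 1.02 and Col3a1 at -1.54.

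Several marker lists moved with these differences at day 10. Of all tested genes 15.2% were higher and 26.1% lower at day 10, and 4.52% were called in either direction at day 22. The 16 fibroblast markers together had 341 to 686 CPM at day 22 in p95HER2 tumors, against 352 to 654 CPM in FL-HER2 tumors, and 0 of 16 were called. At day 10 they had 548 to 982 CPM in p95HER2 tumors, against 914 to 1803 CPM in FL-HER2 tumors, and 11 of 16 were lower and 0 higher. With the mean log2 value of these markers as a covariate, 0 collagens were lower at day 10, and Col18a1, Col7a1, Col25a1 and Col9a1 were higher. All 20 skeletal muscle markers were lower in p95HER2 tumors at day 10, at 34.5 to 10460 CPM, against 471 to 38080 CPM in FL-HER2 tumors, and 0 were called at day 22. In the libraries with similar muscle content, 4 p95HER2 and 3 FL-HER2 at day 10, Col3a1 and Col16a1 were called lower and Col18a1 higher. The 9 epithelial markers had 2149 to 2538 CPM at day 22 in p95HER2 tumors, against 1927 to 2371 CPM in FL-HER2 tumors, and 2153 to 2962 CPM at day 10 in p95HER2 tumors, against 1927 to 2916 CPM in FL-HER2 tumors. Their part in the higher Col18a1, Col7a1 and Col25a1 levels was not tested. At day 10 the calls of the remaining lists, as higher and lower, were 0 and 4 of 9 pericyte and smooth muscle genes, 0 and 7 of 10 endothelial genes, 2 and 2 of 9 epithelial genes, 0 and 0 of 5 tested skin genes, 2 and 0 of 2 tested bone genes, 1 and 3 of 5 tested cartilage genes, 0 and 2 of 5 tested adipocyte genes and 0 and 3 of 4 tested Schwann cell genes. The epithelial and adipocyte counts lay near the shares of all tested genes. With the digits of the tumor number as a term beside the group, the day 10 counts of collagens were 4 higher and 2 lower. Those genes were Col18a1, Col7a1, Col25a1 and Col9a1, and Col14a1 and Col6a6. In FL-HER2 day 10 replicates 7 and 9 Col3a1 had 2380 and 3400 CPM, against 3350 to 7270 CPM in the 8 tumors with longer numbers, and with the term its difference was -0.86 (adjusted p 0.0878).

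Between day 22 and day 10 the levels of most collagens fell in both constructs, and the few that rose were mainly type IX chains. In p95HER2 tumors 20 of the 35 were lower and 3 higher at day 22, where 18.6% and 16.6% of all tested genes (35.2% in either direction) were called. In FL-HER2 tumors 24 were lower and 4 higher, where 30.6% and 20.7% of all tested genes (51.4% in either direction) were called. Col6a5 is counted as lower in both constructs. It reached 1 CPM in 11 libraries, and its highest p95HER2 day 22 value was 0.22 CPM. Its FL-HER2 medians were 0.20 CPM at day 22 and 0.86 CPM at day 10. As with Col24a1 below, its passing of the filter and its fall are not independent. The median log2 change of the 35 was -0.83 in p95HER2 and -1.28 in FL-HER2 tumors, beside 0.00 and -0.03 over all tested genes. In p95HER2 tumors 10 members had every day 22 library below every day 10 library, and 1 had every one above, where 4.14% and 2.68% of all tested genes did so. In FL-HER2 tumors 17 members lay fully below and 0 above, where 6.89% and 2.78% of all tested genes did. With log2(CPM + 1) as the scale, the share of all calls that were higher was 64.3% in place of 47.1% in p95HER2 and 62.4% in place of 40.4% in FL-HER2 tumors. None of the collagens called in any of the 5 contrasts changed direction with quantile normalization, median-of-ratios size factors, log2(CPM + 1) or voom.

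The 8 fibrillar genes of types I, III, V, XXIV and XI, with Col1a1, Col1a2, Col3a1, Col5a1, Col5a2, Col5a3, Col24a1 and Col11a1, were lower at day 22 in both constructs. Col1a1 changed by -2.02 ± 0.18 in p95HER2 tumors (adjusted p 1.87e-11) and by -2.57 ± 0.19 in FL-HER2 tumors (adjusted p 6e-14), and its day 22 libraries lay below its day 10 libraries in both. Col3a1 changed by -1.41 ± 0.20 in p95HER2 tumors (adjusted p 6.24e-07) and by -2.68 ± 0.21 in FL-HER2 tumors (adjusted p 3.52e-13), again without overlap. In FL-HER2 tumors all 8 lay fully below, and in p95HER2 tumors 5 did. Col24a1, a rare fibrillar chain known from developing bone, had medians of 0.77 CPM at day 22 and 2.88 CPM at day 10 in p95HER2 tumors, and of 0.73 CPM at day 22 and 4.26 CPM at day 10 in FL-HER2 tumors. Its changes were -2.05 ± 0.24 in p95HER2 and -2.51 ± 0.25 in FL-HER2 tumors. Col24a1 reached 1 CPM in 25 libraries, among them every day 10 library, and passed the filter only through these. Its passing and its fall are thus not independent. Col5a1 changed by -1.598 ± 0.19 in p95HER2 and by -2.53 ± 0.19 in FL-HER2 tumors. Col2a1 and Col27a1 had no call in either construct, and Col11a2 was higher at day 22 in FL-HER2 tumors (1.01 ± 0.25, adjusted p 0.00081).

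Type VI chains and type XII collagen fell with time as well. Col6a1 had 126, 149 and 172 CPM at day 22, against 363, 549.8 and 872 CPM at day 10 in p95HER2 tumors. In FL-HER2 tumors it had 90.6, 160.3 and 227 CPM at day 22, against 595, 915 and 1289 CPM at day 10. No library of day 22 reached the lowest of day 10 in either construct. The changes of Col6a1 were -1.99 ± 0.16 in p95HER2 tumors (adjusted p 6.77e-13) and -2.62 ± 0.16 in FL-HER2 tumors (adjusted p 1.15e-15). Those of Col6a2 were -2.005 ± 0.17 in p95HER2 tumors (adjusted p 4.12e-12) and -2.80 ± 0.18 in FL-HER2 tumors (adjusted p 1.25e-15). Col12a1 had medians of 92.0 CPM at day 22 and 354 CPM at day 10 in p95HER2 tumors, and of 82.7 CPM at day 22 and 382 CPM at day 10 in FL-HER2 tumors. It changed by -1.96 ± 0.20 in p95HER2 and by -2.30 ± 0.21 in FL-HER2 tumors, without overlap in either construct. Col6a3 changed by -1.41 ± 0.19 in p95HER2 and by -2.06 ± 0.20 in FL-HER2 tumors. Col6a6 went the other way in p95HER2 tumors at 0.92 ± 0.31 (adjusted p 0.0195), a call that ended without p95HER2 day 10 replicate 7 (adjusted p 0.0539). Here too its passing of the filter and its change are not independent.

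Of the genes that were higher in p95HER2 tumors, Col7a1, Col18a1 and Col25a1 also fell with time, and Col4a5 had no call (-0.15 ± 0.11 in p95HER2 and -0.24 ± 0.12 in FL-HER2 tumors). Col7a1 changed by -2.52 ± 0.21 in p95HER2 tumors (adjusted p 1.64e-12) and by -2.32 ± 0.21 in FL-HER2 tumors (adjusted p 1.71e-11), with no overlap between days in either. Col18a1 changed by -1.29 ± 0.14 in p95HER2 tumors (adjusted p 1.4e-09) and by -1.28 ± 0.14 in FL-HER2 tumors (adjusted p 1.7e-09). Col25a1 changed by -1.295 ± 0.19 in p95HER2 tumors and by -0.83 ± 0.19 in FL-HER2 tumors. Col4a1 and Col4a2, the ubiquitous type IV pair, were lower at day 22 in FL-HER2 tumors (-0.56 ± 0.15 and -0.57 ± 0.15, adjusted p 0.00233 and 0.00119). In p95HER2 tumors they differed by 0.21 ± 0.15 and 0.16 ± 0.14 without a call. Col15a1, Col16a1 and Col8a2 likewise fell in FL-HER2 tumors (-0.85, -1.27 and -1.32) and had no call in p95HER2 tumors (-0.12, -0.10 and -0.01). Between days 18.6% of all tested genes were lower and 16.6% higher in p95HER2 tumors, and 30.6% lower and 20.7% higher in FL-HER2 tumors. Of the 10 endothelial markers, 1 was lower and 1 higher in p95HER2 tumors, and 9 were lower and 0 higher in FL-HER2 tumors. Their summed levels were 177 to 301 CPM at day 22 against 149 to 298 CPM at day 10 in p95HER2 tumors, and 126 to 236 CPM at day 22 against 189 to 341 CPM at day 10 in FL-HER2 tumors. Their part in the type IV changes was not tested. In the remaining class Col23a1, a transmembrane collagen, fell by 1.14 in p95HER2 and by 1.44 in FL-HER2 tumors, at medians of 1.34 CPM at day 22 and 2.85 CPM at day 10 in p95HER2 tumors. Col14a1 was lower at day 22 by -0.63 ± 0.24 in p95HER2 tumors (adjusted p 0.0383) and by -2.12 ± 0.25 in FL-HER2 tumors (adjusted p 4.9e-09), and leaving out any 1 of 11 libraries ended the p95HER2 call. Col10a1 was lower at day 22 in p95HER2 tumors (-1.40 ± 0.46, adjusted p 0.0153) and had no call in FL-HER2 tumors (-0.74 ± 0.47, adjusted p 0.192). That p95HER2 call was lost with similar muscle content, without the skin-high libraries and with the fibroblast markers as a covariate. In FL-HER2 tumors limma called Col10a1 lower with the muscle markers as a covariate (-1.32, adjusted p 0.012) and with similar muscle content (-1.66, adjusted p 0.0268).

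Col9a2 and Col9a3, chains of type IX collagen, rose with time. Col9a2 (chromosome 4, 121039385 to 121055322) had 29.1, 58.2 and 183 CPM at day 22, against 9.63, 15.8 and 18.9 CPM at day 10 in p95HER2 tumors. In FL-HER2 tumors it had 22.4, 57.98 and 101 CPM at day 22, against 7.995, 22.2 and 25.0 CPM at day 10. The days lay fully apart in p95HER2 tumors and overlapped in FL-HER2 tumors. Its change was 2.18 ± 0.25 in p95HER2 tumors (adjusted p 6.41e-09) and 1.38 ± 0.26 in FL-HER2 tumors (adjusted p 2.93e-05). Col9a3 rose by 0.59 ± 0.12 in p95HER2 tumors (adjusted p 0.000193) and 0.76 ± 0.13 in FL-HER2 tumors (adjusted p 4.33e-06). Col9a1 differed by -0.01 ± 0.07 in p95HER2 and by 0.18 ± 0.07 in FL-HER2 tumors. The FL-HER2 call of Col9a1 (adjusted p 0.0307) was lost on leaving out any 1 of 6 libraries.

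Of the 8 cartilage markers listed beside these genes, Matn1 and Hapln1 were near 0, with highest values of 0.21 and 1.90 CPM in any library. The rest did not move as 1 group. Acan, the main proteoglycan of cartilage, averaged 1.38 CPM at day 22 and 9.99 CPM at day 10 in p95HER2 tumors, and 1.57 CPM at day 22 and 17.7 CPM at day 10 in FL-HER2 tumors. Cnmd, a cartilage inhibitor of vessel growth, averaged 33.95 CPM at day 22 and 3.37 CPM at day 10 in p95HER2 tumors, and 36.2 CPM at day 22 and 11.2 CPM at day 10 in FL-HER2 tumors. Sox9, a factor of cartilage and of many epithelia, made up most of the list's 511 to 854 CPM. The part of cartilage-like cells in the Col2a1 and Col9a2 levels was not tested. For the fibrillar and type VI genes, 12 of 16 fibroblast markers were lower at day 22 in p95HER2 tumors and 15 of 16 in FL-HER2 tumors. Of all tested genes, 18.6% were lower in p95HER2 and 30.6% in FL-HER2 tumors. Of the 20 muscle markers 0 were called between days in p95HER2 tumors, and 10 were lower at day 22 in FL-HER2 tumors. With the mean of the fibroblast markers as a covariate, 13 collagens were called lower and 8 higher in p95HER2 tumors, and 9 lower and 3 higher in FL-HER2 tumors. Those called higher in p95HER2 tumors then included Col2a1 (0.49, adjusted p 0.0488), Col4a1 (0.52, adjusted p 0.0222), Col4a2 (0.47, adjusted p 0.0343) and Col15a1 (0.42, adjusted p 0.0235), which had no call without it.

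**Figure D3:**
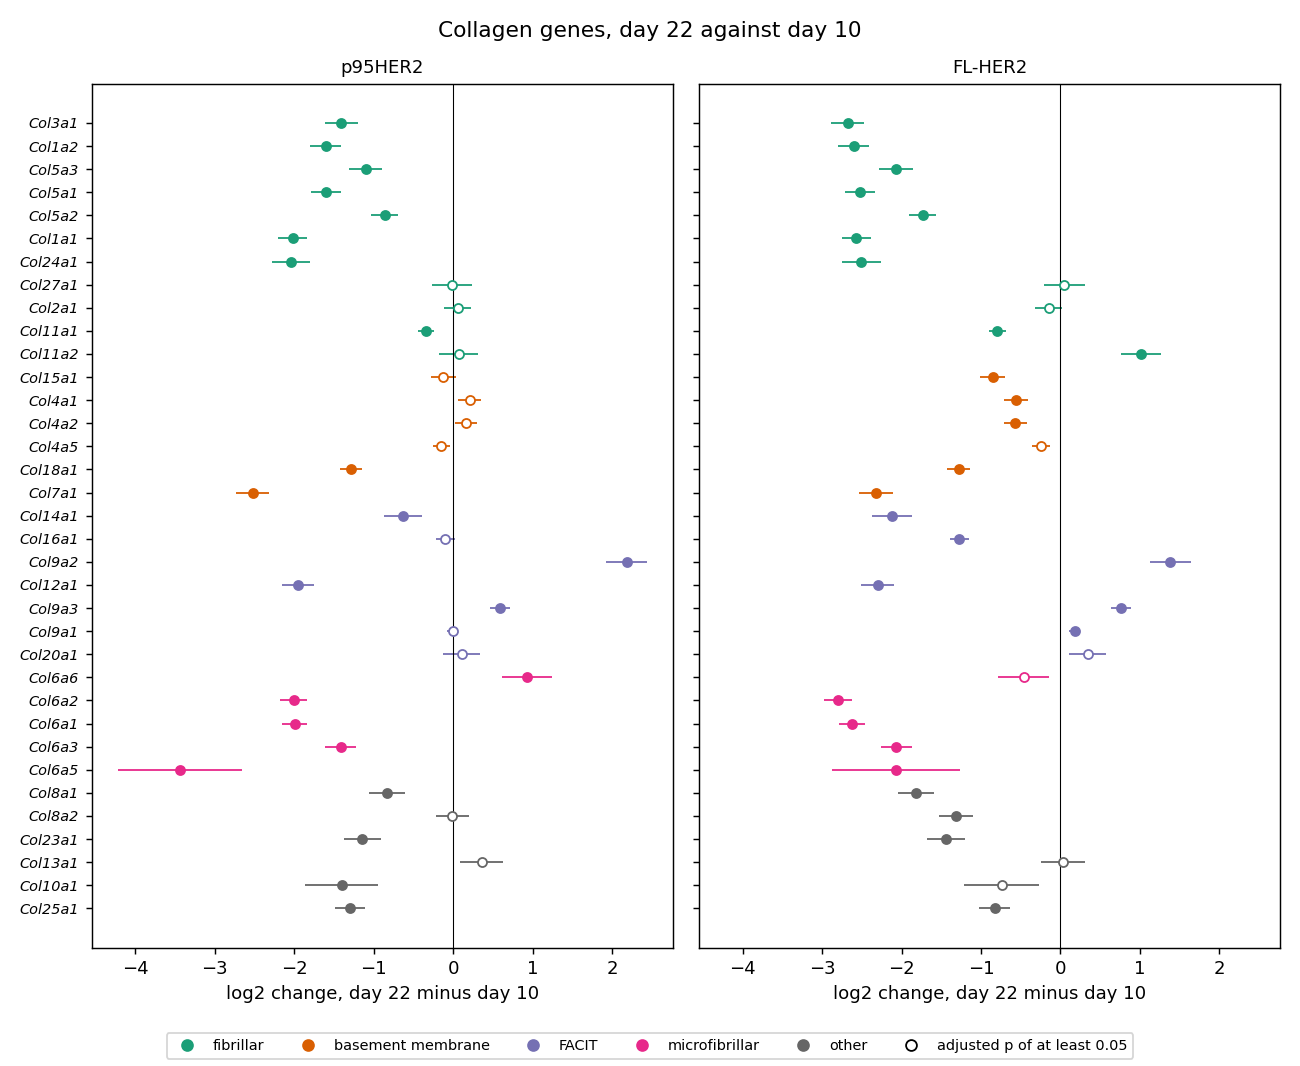
Log2 change of day 22 over day 10 for each tested collagen in p95HER2 (left) and FL-HER2 (right) tumors, with bars for 1 SE and filled points for genes called at an adjusted p under 0.05. Most filled points lie left of 0, such as Col7a1 at -2.52 in p95HER2 and Col6a2 at -2.80 in FL-HER2 tumors, and Col9a2 lies farthest right in both, at 2.18 in p95HER2 and 1.38 in FL-HER2 tumors.

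Whether the p95HER2 difference itself changed between the days was tested as an interaction, the day 22 difference minus the day 10 difference. It was positive and called in 16 of 35 members and negative in 1, where 13.5% and 6.2% of all tested genes (19.6% in either direction) were called. The split of all calls depended on the scale, with 68.5% positive as deposited and 43.5% after quantile normalization. Col16a1 had the lowest adjusted p, at 1.18 ± 0.17 (adjusted p 1.46e-05), followed by Col3a1 at 1.27 ± 0.29 (adjusted p 0.00226), Col8a2 at 1.305 ± 0.30 (adjusted p 0.0023) and Col14a1 at 1.49 ± 0.35 (adjusted p 0.00254). Col4a1 and Col4a2 passed with 0.76 ± 0.21 and 0.74 ± 0.20 (adjusted p 0.0101 and 0.00973), although neither was called on a single day in the same fit. For Col18a1 the change was -0.00 ± 0.20 and for Col7a1 -0.20 ± 0.30, with no call. For Col1a1 it was 0.55 ± 0.26 (adjusted p 0.128). With the digits of the tumor number as a term limma called 0 members, 2 positive and 3 negative ones having an unadjusted p under 0.05, and without that term voom called 14. Of the endothelial markers 8 of 10, and of the fibroblast markers 7 of 16, also had a positive call.

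Ratios of chains within a library do not depend on its scaling, and they were compared for 8 pairs in 4 comparisons with exact two-sided permutation tests, whose smallest possible p is 1.08e-05 for 10 libraries against 10, adjusted over all 32. In 14 of the 32 the difference was called. They are log2 ratios of reads without a correction for length, so only differences between groups are read from them. Type I collagen is normally built from more Col1a1 than Col1a2 chains. Its log2 ratio Col1a1/Col1a2 averaged 0.81 ± 0.16 (SD) at day 22 in p95HER2 tumors and 0.82 ± 0.16 in FL-HER2 tumors (adjusted p 0.875). At day 10 it averaged 1.22 ± 0.15 in p95HER2 tumors and 0.79 ± 0.10 in FL-HER2 tumors, a difference of 0.43 (adjusted p 4.33e-05). The day 10 libraries lay fully apart, at 1.01 to 1.49 in p95HER2 tumors and 0.62 to 0.95 in FL-HER2 tumors. With time the ratio fell by 0.41 in p95HER2 tumors (adjusted p 6.93e-05), and it differed by 0.04 in FL-HER2 tumors (adjusted p 0.742).

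Type III relative to type I collagen, the ratio Col3a1/Col1a1, also differed between constructs at day 10. It averaged -0.79 ± 0.37 at day 22 in p95HER2 tumors and -0.75 ± 0.27 in FL-HER2 tumors (adjusted p 0.874). Its day 10 averages were -1.40 ± 0.17 in p95HER2 tumors and -0.64 ± 0.14 in FL-HER2 tumors (adjusted p 4.33e-05). Every p95HER2 library at day 10 was below every FL-HER2 library, with ranges of -1.58 to -1.14 in p95HER2 and -0.94 to -0.48 in FL-HER2 tumors. Col6a1/Col6a2 differed by 0.08 at day 22 (adjusted p 0.451) and by 0.25 at day 10, with 0.58 ± 0.06 in p95HER2 tumors and 0.33 ± 0.06 in FL-HER2 tumors (adjusted p 4.33e-05). The 2 FL-HER2 day 10 libraries with shorter tumor numbers had Col3a1/Col1a1 ratios of -0.79 and -0.48, inside or at the edge of the -0.94 to -0.48 of the other 8. Their Col1a1/Col1a2 ratios were 0.95 and 0.66, against 0.62 to 0.90 in the other 8, and the p95HER2 libraries of day 10 lay above all of them. For Col6a1/Col6a2 they had 0.47 in replicate 7, above the 0.26 to 0.38 of the other 8 and just under the lowest p95HER2 library of day 10 (0.474), and 0.27 in replicate 9.

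The ratio Col18a1/Col4a1 sets the p95HER2-high gene of the basement membrane against its main network chain. It averaged -0.91 ± 0.29 at day 22 in p95HER2 tumors and -1.50 ± 0.23 in FL-HER2 tumors (adjusted p 0.0012). The day 10 averages were 0.58 ± 0.22 in p95HER2 tumors and -0.78 ± 0.16 in FL-HER2 tumors, a difference of 1.36 (adjusted p 4.33e-05), and the day 10 groups lay fully apart. Col4a1/Col4a2 moved least. These genes lie head to head on chromosome 8, with starts at 11312826 on the minus strand and 11312805 on the plus strand, so that they overlap by 22 bases. The mean log2 ratio lay between 0.72 and 0.77 in all 4 groups, with SDs of 0.04 to 0.06, and no comparison was called (adjusted p 0.128 to 0.874). The strand setting of the counting is not given in the sources used here, so reads on the short overlap cannot be assigned.

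For type V the ratio Col5a1/Col5a2 did not differ by a called amount between constructs (-0.06 at day 22 and -0.11 at day 10), and was lower at day 22 by -0.74 in p95HER2 tumors and by -0.79 in FL-HER2 tumors (adjusted p 4.33e-05 each). Col8a1/Col8a2, the pair that forms networks in Descemet's membrane and around vessels, was lower at day 22 by -0.82 in p95HER2 tumors (adjusted p 0.00878) and by -0.50 in FL-HER2 tumors (adjusted p 0.0104). Col4a5/Col4a6 gave no call in any comparison, and Col4a6 stayed under 1 CPM in every library, so its ratios rest on few reads.

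**Figure D4:**
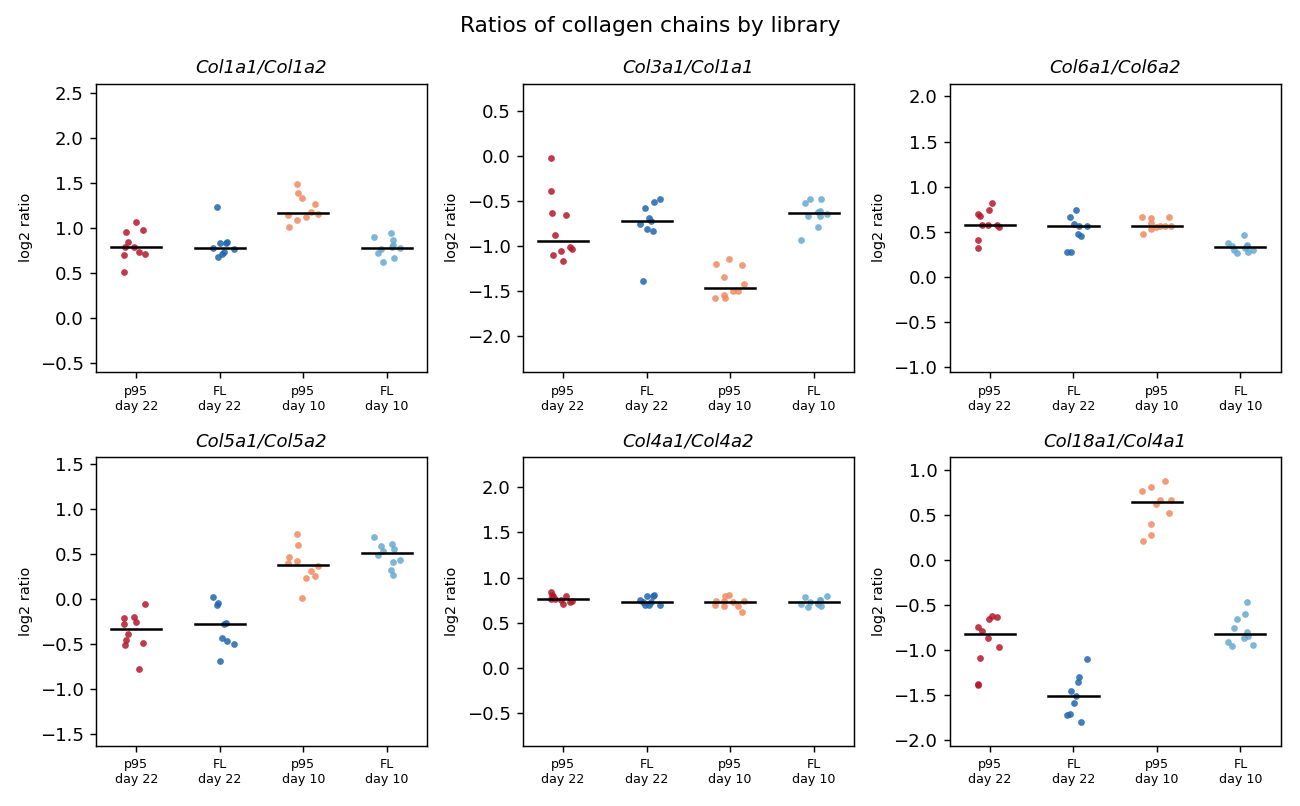
Log2 ratio of reads of 6 collagen pairs in each library, by group, with p95HER2 left of FL-HER2 on each day. Points are libraries and lines are medians. At day 10 Col1a1/Col1a2, Col3a1/Col1a1, Col18a1/Col4a1 and, by a narrow margin, Col6a1/Col6a2 separate the constructs without overlap. Col4a1/Col4a2 stays near the same value in all 39 libraries.

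The collagen genes together held 0.551, 0.638 and 0.789% of all reads at day 22 in p95HER2 tumors, against 0.378, 0.687 and 0.769% in FL-HER2 tumors. At day 10 they held 0.874, 1.27 and 1.98% in p95HER2 tumors, against 1.37, 2.31 and 3.68% in FL-HER2 tumors. Day 22 libraries of both constructs covered the same range, below all day 10 libraries. Counted per length, the make-up of the collagen RNA differed as well, given here as a description. Fibrillar collagens other than types II and XI made up a median of 37.9% at day 22 in p95HER2 tumors, against 46.9% in FL-HER2 tumors. At day 10 they made up 60.3% in p95HER2 tumors, against 71.4% in FL-HER2 tumors, and the day 10 ranges, 55.0 to 63.2% in p95HER2 and 64.8 to 75.2% in FL-HER2 tumors, did not overlap. The basement membrane class had medians of 16.5% at day 22 in p95HER2 tumors against 13.2% in FL-HER2 tumors, and 9.90% at day 10 in p95HER2 tumors against 4.86% in FL-HER2 tumors. At day 10 its ranges, 8.50 to 11.1% in p95HER2 and 4.08 to 7.84% in FL-HER2 tumors, did not overlap either. The cartilage-type chains of types II, IX and XI had medians of 32.3% at day 22 in p95HER2 tumors against 30.02% in FL-HER2 tumors, and 13.2% at day 10 in p95HER2 tumors against 7.95% in FL-HER2 tumors. Col2a1 alone made up a median of 14.4% in p95HER2 and 15.0% in FL-HER2 tumors at day 22, while its own CPM had no called change.

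**Figure D5:**
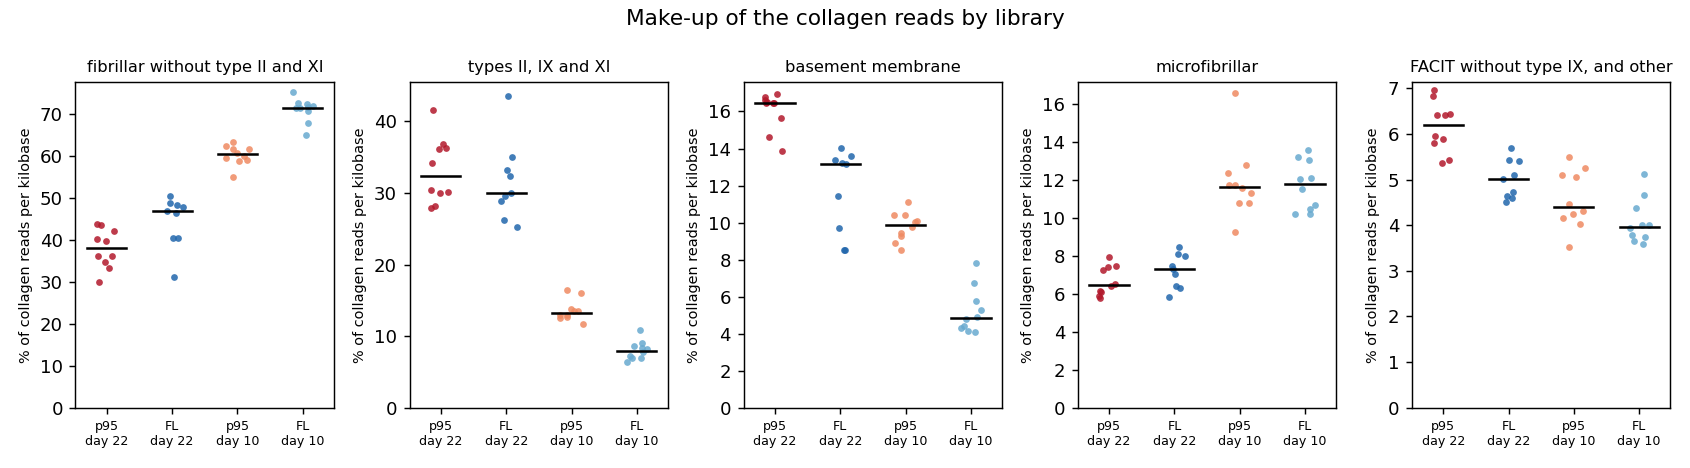
Share of the summed collagen RPKM held by 5 parts of the collagen genes in each library, in percent, by group, with p95HER2 left of FL-HER2 on each day. Points are libraries and lines are medians. The fibrillar share without types II and XI is highest in FL-HER2 tumors at day 10 (median 71.4%), and the share of types II, IX and XI is highest at day 22 (medians 32.3% in p95HER2 and 30.02% in FL-HER2 tumors).

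The genes that make, bind and break down collagens were read from lists in the same fit. Of 31 biosynthesis genes 30 were tested. In p95HER2 tumors against FL-HER2 tumors, 5 were higher and 0 lower at day 22, and 3 were higher and 14 lower at day 10. Of all tested genes 2.98% were higher and 1.54% lower at day 22, and 15.2% higher and 26.1% lower at day 10. Pcolce2, which speeds the trimming of procollagen ends, was higher on both days (0.95 ± 0.17 at day 22, adjusted p 2.63e-04, and 0.94 ± 0.16 at day 10, adjusted p 1.53e-05). At day 22 the prolyl hydroxylase subunit P4ha1 (0.39) and the lysyl oxidase Loxl4 (0.57) were also higher. At day 10 the hydroxylase family member P3h3 (-0.72), the lysyl oxidase Loxl1 (-1.06) and the procollagen protease Adamts2 (-1.09) were lower. Between days 18 of 30 were lower and 2 higher at day 22 in p95HER2 tumors, and 26 lower and 1 higher in FL-HER2 tumors. Of all tested genes 18.6% were lower and 16.6% higher in p95HER2 tumors, and 30.6% lower and 20.7% higher in FL-HER2 tumors. Pcolce, the relative of Pcolce2, fell by 1.48 in p95HER2 tumors and by 1.73 in FL-HER2 tumors. Pcolce2 (-1.73) and Loxl3 (-1.05) in p95HER2 tumors and Loxl2 (-2.05) and Adamts2 (-2.15) in FL-HER2 tumors had the next lowest adjusted p-values. The interaction was positive in 13 and negative in 1 of 30, beside 13.5% and 6.2% of all tested genes, led by P3h3 (0.89), its partner P3h4 (0.48) and the procollagen protease Adamts14 (-0.73).

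Of 10 collagen receptors 9 were tested, with 2 higher and 1 lower in p95HER2 tumors at day 22 and 2 higher and 4 lower at day 10. The shares of all tested genes given for the biosynthesis list are the background here and for the degradation genes too, and 2 of 9 higher at day 10 differs by less than 1 gene from the 15.2% of all tested genes. The integrin chain Itgb1 (0.21) and the collagen-binding kinase Ddr1 (0.21) were higher and the inhibitory leukocyte receptor Lair1 (-0.72) was lower at day 22. At day 10 the integrin chain Itga2 of epithelia was higher (0.98 ± 0.17, adjusted p 1.20e-05), and Ddr2 and Itga11, receptors known from fibroblasts, were lower (-0.84 ± 0.12 and -1.24 ± 0.21). Ddr2 rose with time, by 1.79 ± 0.12 in p95HER2 tumors and 0.66 ± 0.12 in FL-HER2 tumors, while the other called receptors were lower at day 22: 5 in p95HER2 tumors, among them Itgb1 (-0.44) and Itga2 (-0.88), and 4 in FL-HER2 tumors, among them Itga11 (-2.27), Mrc2 (-1.70) and Itgb1 (-0.45). Of 7 degradation genes 6 were tested. The collagenase gene Mmp13 was higher in p95HER2 tumors on both days (1.41 ± 0.27 at day 22, adjusted p 7.09e-04, and 1.49 ± 0.26 at day 10, adjusted p 1.80e-05). The lysosomal collagenase Ctsk (-1.25) and the gelatinase Mmp2 (-0.29) were lower at day 10. Between days 5 of 6 were lower at day 22 in both constructs and 0 higher, with Ctsk at -1.02 and Fap at -0.55 in p95HER2 tumors and at -2.21 and -0.58 in FL-HER2 tumors. Fap is also in the fibroblast list.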

How the data were processed

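Per the submitters' processing notes, STAR 2.4.2a, the mm10 build and DESeq2 were used. How reads were counted, by which annotation and strand setting and with which filters, was not given in the sources used here. Although named CPM, the deposited values are log2(read count / size factor + 1): undoing the log2 gave whole multiples of 1 step per library for 100.0% of values (tolerance 0.001 reads). The authors' deposited log2 values were therefore tested directly, in place of the assumed CPM, and carry a pseudocount of 1. A fold change on this scale understates the change of low genes. Recovered reads (21772259 to 44427621 per library) gave CPM.

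Groups came from the labels. The number of digits is that of the tumor number in the description, and for FL-HER2 day 10 replicate 8 this number differs from the title. The 13650 genes that reached 1 CPM in 9 or more libraries entered limma 3.58.1 (1 coefficient per group over 39 libraries, eBayes with a trend, two-sided, Benjamini-Hochberg over all tested genes and adjusted p under 0.05) in R 4.3.3. The fit was tested on simulated data. Ratios were compared with exact permutation tests in Python 3.11.15 with numpy 2.4.6. Exon lengths and positions came from GENCODE M21 on mm10, in which 20162 genes of the table matched 1 gene.

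The members and all lists were chosen with earlier results of these data known. Full values are given for up to 2 called rises and 2 called falls per class and contrast with the smallest adjusted p, for the most abundant member of each class, and for up to 3 called genes per pathway list and contrast. Some further members are given as counts, ranges or single values.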

Additional observations from a re-analysis of the deposited data

Results flagged for a closer look

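Within-group outliers were looked for in 100 combinations of a collagen gene and a group, and 9 had a lowest library set apart from the rest. These combinations did not cover all 35 tested members in all 4 groups. Chance sets apart about 1 in 20 such groups when each is taken alone. The combinations are not independent, because several genes can be low together in 1 library, as in the case that follows. FL-HER2 day 22 replicate 4 was far below its group for Col1a1 (531 CPM), Col1a2 (324 CPM), Col3a1 (331 CPM) and Col5a1 (66.5 CPM). In p95HER2 day 10, replicate 6 was low for Col18a1 (262 CPM), and replicate 5 was low for Col9a1 (249 CPM) and Col9a3 (61.5 CPM). FL-HER2 day 22 replicate 7 was low for Col11a2 (2.70 CPM), and FL-HER2 day 10 replicate 9 for Col9a2 (7.99 CPM).

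The p95HER2 difference changed between the days, by the interaction term of the limma fit, in 17 collagens. The values are the log2 difference at day 22 minus that at day 10. Among fibrillar genes they were 0.9995 for Col1a2, 1.27 for Col3a1, 0.93 for Col5a1, 0.87 for Col5a2, 0.97 for Col5a3, 0.45 for Col11a1 and -0.94 for Col11a2. In the basement membrane class they were 0.76 for Col4a1, 0.74 for Col4a2 and 0.73 for Col15a1. Among FACIT collagens they were 1.49 for Col14a1 and 1.18 for Col16a1. Type VI gave 0.62 for Col6a1, 0.79 for Col6a2 and 1.39 for Col6a6, and type VIII gave 0.99 for Col8a1 and 1.3 for Col8a2. Leaving out any 1 of 30 libraries ended the call of Col11a2, any 1 of 27 that of Col6a1 and any 1 of 5 that of Col11a1.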

How the results depend on the processing

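No paired analysis was possible because replicate numbers follow record order and the labels share no number between groups. Pseudocount, filter, size factor, quantile, voom and muscle covariate alternatives kept every count of called collagens, both directions summed, within 1.5 times. By direction, the 1 negative interaction call became 0 with voom and with no filter. At day 10 the 22 collagens called became 3 in libraries with similar muscle content (0.1% to 1.3% of reads), 4 with the fibroblast covariate and 6 with the digits term. At day 22 the 4 became 2 without skin-high libraries, 9 with the fibroblast covariate and 7 with only the 2 groups in the fit. For day 22 against day 10 in FL-HER2 tumors the 28 became 12 with the fibroblast covariate, and in p95HER2 tumors the 3 higher and 20 lower became 8 and 13. For the interaction the 17 became 1 with similar muscle content, 1 with the fibroblast covariate and 0 with the digits term. All 17 kept their direction with similar muscle content and with the fibroblast covariate, and with similar muscle content Col4a1 had 0.73, Col16a1 1.17 and Col8a2 1.27. Fewer libraries entered the muscle and skin alternatives, and for the others the cause was not tested. Leaving out 1 library gave 21 to 25 calls at day 10, 3 to 4 at day 22, 22 to 23 over time in p95HER2 and 27 to 28 in FL-HER2 tumors, 14 to 18 for the interaction and 14 to 15 for ratios.

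Beside the 94 called values of single collagens, Col24a1 at day 10 was followed as a value at the threshold. Of 3705 such values with 1 library left out, 3582 kept their side of the threshold, 110 lost the call, 13, all of Col24a1, gained it and 0 changed direction. Other uncalled values were not part of this count, and some of them also gained a limma call. At day 10 Col4a2 (adjusted p 0.052) did so without any 1 of 9 libraries, and Col4a1 (adjusted p 0.0584) without any 1 of 4. Over time in FL-HER2 tumors Col4a5 (adjusted p 0.0778) did so without any 1 of 3. Directions turned for Col10a1 at day 10 with similar muscle content (-0.081) and for Col8a1 (0.031), Col8a2 (0.13) and Col24a1 (0.15) at day 10 with the digits term. With the fibroblast covariate they turned at day 10 for Col15a1 (0.15), Col1a1 (0.15), Col5a3 (0.19), Col6a1 (0.013) and Col6a3 (0.12), over time in FL-HER2 tumors for Col14a1 (0.25), Col15a1 (0.28), Col4a1 (0.11), Col4a2 (0.062) and Col6a5 (0.27), and over time in p95HER2 tumors for Col14a1 (0.50, adjusted p 0.00161). Leaving out any 1 of 11 libraries ended the call of Col14a1 over time in p95HER2 tumors, and any 1 of 6 that of Col6a5 over time in FL-HER2 tumors. The digits term rests on 2 libraries of FL-HER2 day 10. Genes near 1 CPM, such as Col6a5, Col6a6 and, at day 22, Col24a1, rest on few reads. Whether such genes pass the filter is not independent of their differences between groups.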

Other observations

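Within groups, Col4a1 and Col4a2 followed each other with the highest r of the 6 pairs looked at. The pairs were chosen after their values had been seen, and 24 relations were computed on log2 values within groups, with permutation p-values adjusted over them. Pearson's r was 0.992 in p95HER2 tumors at day 22 (adjusted p 1.20e-04, Spearman's rho 0.952), 0.993 in FL-HER2 tumors at day 22 (permutation, adjusted p 6.61e-05, rho 1), 0.990 in p95HER2 tumors at day 10 (adjusted p 1.20e-04, rho 0.964) and 0.994 in FL-HER2 tumors at day 10 (adjusted p 1.20e-04, rho 0.988). Without the 2 libraries farthest from the median of Col4a1, r was between 0.973 and 0.989. The smallest p-value obtained with the 100000 resamples was 2.00e-05.

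Col2a1, whose mean level did not change by a called amount, followed Col1a1 within the day 10 groups. There r was 0.856 in p95HER2 tumors (adjusted p 0.00429, rho 0.830 with an adjusted p of 0.0118, and r 0.634 without the 2 farthest libraries) and 0.912 in FL-HER2 tumors (adjusted p 0.00110, rho 0.952 with an adjusted p of 4.80e-04, and r 0.931 without them). At day 22 r was -0.359 in p95HER2 tumors (adjusted p 0.318) and 0.498 in FL-HER2 tumors (permutation, adjusted p 0.218), and without the 2 farthest libraries it was -0.053 and -0.091.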
